A study of Mus musculus with 28 samples.

Results

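The aldehyde dehydrogenases described here are 10 mouse genes, Aldh1a1, Aldh1a7, Aldh1b1, Aldh1l1, Aldh2, Aldh3a2, Aldh4a1, Aldh6a1, Aldh8a1 and Aldh9a1, of 20660 genes with a symbol on the array. They were chosen by name, with every probe whose RefSeq accession belongs to one of them, which gave 11 of 55681 probes: Aldh6a1 had 2 and each other gene had 1. Livers came from male B6C3F1 mice, labelled 42 days old, taken from formalin-fixed, paraffin-embedded (FFPE) blocks that were 16 years old. Phenobarbital mice received 0.05% phenobarbital in the drinking water for about 4 weeks (n = 3), and control mice had drinking water alone (n = 3). RNA of the same 6 mice, copied into cDNA by whole-transcriptome amplification and labelled chemically, was hybridized in 4 sets, each on a slide of its own. Both one-colour sets had 6 arrays, with cDNA input of 1X in the first and 1.5X in the other, and both two-colour sets had 8 dye-swap arrays with the same inputs, of which 6 were used at 1X. Whole liver was extracted, so fewer cells of a type and less RNA per cell cannot be told apart.

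Aldehyde dehydrogenases oxidize aldehydes to acids with NAD or NADP as the electron acceptor. In liver they clear the acetaldehyde made from ethanol and the aldehydes of lipid peroxidation, and several of them are steps of amino acid, folate, retinoid or carnitine metabolism. Phenobarbital acts in hepatocytes through the nuclear receptor CAR (constitutive androstane receptor), which raises the transcription of many drug-metabolizing enzymes, and a cytosolic rat enzyme of the ALDH1 class was named for its induction by this drug.

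Aldh1a1 and Aldh1a7 lie near each other on chromosome 19, with no other protein-coding gene between them in the RefSeq annotation. The promoter sequences of both are shown because these neighbours had the largest changes of the 10 genes over both one-colour inputs. Each is the 250 bases before a RefSeq transcript start in build GRCm38.p6, and the capitals mark the longest run that both hold, 65 bases, which runs from 94 to 30 bases before each start.
Aldh1a1, chr19:20601718-20601967, plus strand: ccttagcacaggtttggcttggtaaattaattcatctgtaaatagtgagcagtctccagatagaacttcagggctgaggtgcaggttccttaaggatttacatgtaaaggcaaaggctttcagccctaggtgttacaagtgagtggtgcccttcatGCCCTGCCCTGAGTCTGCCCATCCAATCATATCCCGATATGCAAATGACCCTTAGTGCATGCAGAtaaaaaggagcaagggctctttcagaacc
Aldh1a7, chr19:20727557-20727806, minus strand: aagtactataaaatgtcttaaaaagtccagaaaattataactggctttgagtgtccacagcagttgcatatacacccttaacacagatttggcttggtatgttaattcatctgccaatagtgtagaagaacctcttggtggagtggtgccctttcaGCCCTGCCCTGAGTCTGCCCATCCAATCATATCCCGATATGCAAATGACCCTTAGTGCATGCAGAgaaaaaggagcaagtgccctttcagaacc

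Over the last 110 bases before the start the pair was identical at 104 positions (94.5%), compared without gaps, and no other window in the table of promoters held the shared run. Aldh1a1 has another annotated start, whose window matched Aldh1a7 at 32 of the 110 positions. In all, 9 of the 10 genes had at least 1 window, and there were 11 windows. The half-sites bound by CAR and other nuclear receptors were searched on both strands as AGGTCA, as AGTTCA and as the spaced pair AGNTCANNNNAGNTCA, where motifs may overlap. AGGTCA was found before Aldh1l1 and before 1 start of Aldh6a1, that is in 2 of 11 windows, against 14% of all 32851 windows of this length. AGTTCA (11.8% of all windows) and the spaced pair (0.103%) were found in none of the 11 windows. CCAAT stood in 8 of the 11 windows, against 33.8% of all windows, and its copy 72 bases before the start of Aldh1a1 and of Aldh1a7 lies inside the shared run. GGGCGG stood in 3 of the 11 windows (32.7% of all windows), TATAAA in 1, that of Aldh1a7 (12.4%), and TGACNNNGC in 1, that of Aldh9a1 (10.2%). These matches are descriptions of the letters in the windows.

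The share of probes well above background ran from 44.2% to 51.9% on the one-colour 1X arrays and from 28.1% to 38.5% on the 1.5X arrays. For Cy3 of the two-colour arrays it ran from 21.9% to 31.5% (1X) and from 34.4% to 42.8% (1.5X), and for Cy5 from 14.8% to 23.1% (1X) and from 2.97% to 7.41% (1.5X). The exposure check used 5 CAR targets, Cyp2b10, Cyp2c55, Cyp3a11, Por and Gstm3. All 5 passed as higher in the two-colour 1X set, where 6.11% of all genes passed in either direction. They also passed over both one-colour inputs (0.699% of all genes). In each one-colour set 4 of 5 passed (0.161% of all genes at 1X and 0.237% at 1.5X). None of the 3 tested passed in the two-colour 1.5X set, where no gene passed (0%). Over both inputs Cyp3a11 lost the call whichever mouse was left out (adjusted p of 0.0806 to 0.164). In the one-colour sets and the two-colour 1X set Cyp2b10 was above background in all 3 phenobarbital mice and in no control mouse. It thus entered the test through the phenobarbital group alone, and its change is measured against control values not above background. All 9 hepatocyte markers with a probe were above background on every one-colour array. All 8 markers of the pancreas were above background on every one-colour 1X array as well, and 7 of 8 on every 1.5X array. At 1X their summed level, as log2 relative to the array's 75th percentile, ranged from 6.78 to 9.22 in phenobarbital mice and from 7.36 to 9.30 in control mice. The median change of the pancreas markers was -0.97 over both inputs and none passed, and their part in the values of the aldehyde dehydrogenases was not tested.

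Aldh1a1 was higher in all phenobarbital mice than in any control mouse in each of the 4 sets. Groups did not overlap, in either direction, for 14.1% of all genes at one-colour 1X and 20.8% at 1.5X. In the two-colour sets it was 32.9% at 1X and 3.67% at 1.5X. The Aldh1a1 difference was 2.00-fold to 2.36-fold in 3 sets and 1.41-fold in the two-colour 1.5X set. Aldh1a1 passed the test in the two-colour 1X set. The other 9 genes passed in no comparison. Values of the one-colour sets are log2 signals minus the array's 75th percentile, those of the two-colour sets are normalized log2 signals averaged over both dyes, and a gene was called at an adjusted p under 0.05 (limma, Benjamini-Hochberg over all genes tested). Every gene had its main probe well above background on all 12 one-colour arrays, and no spot of them was saturated.

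**Figure D1:**
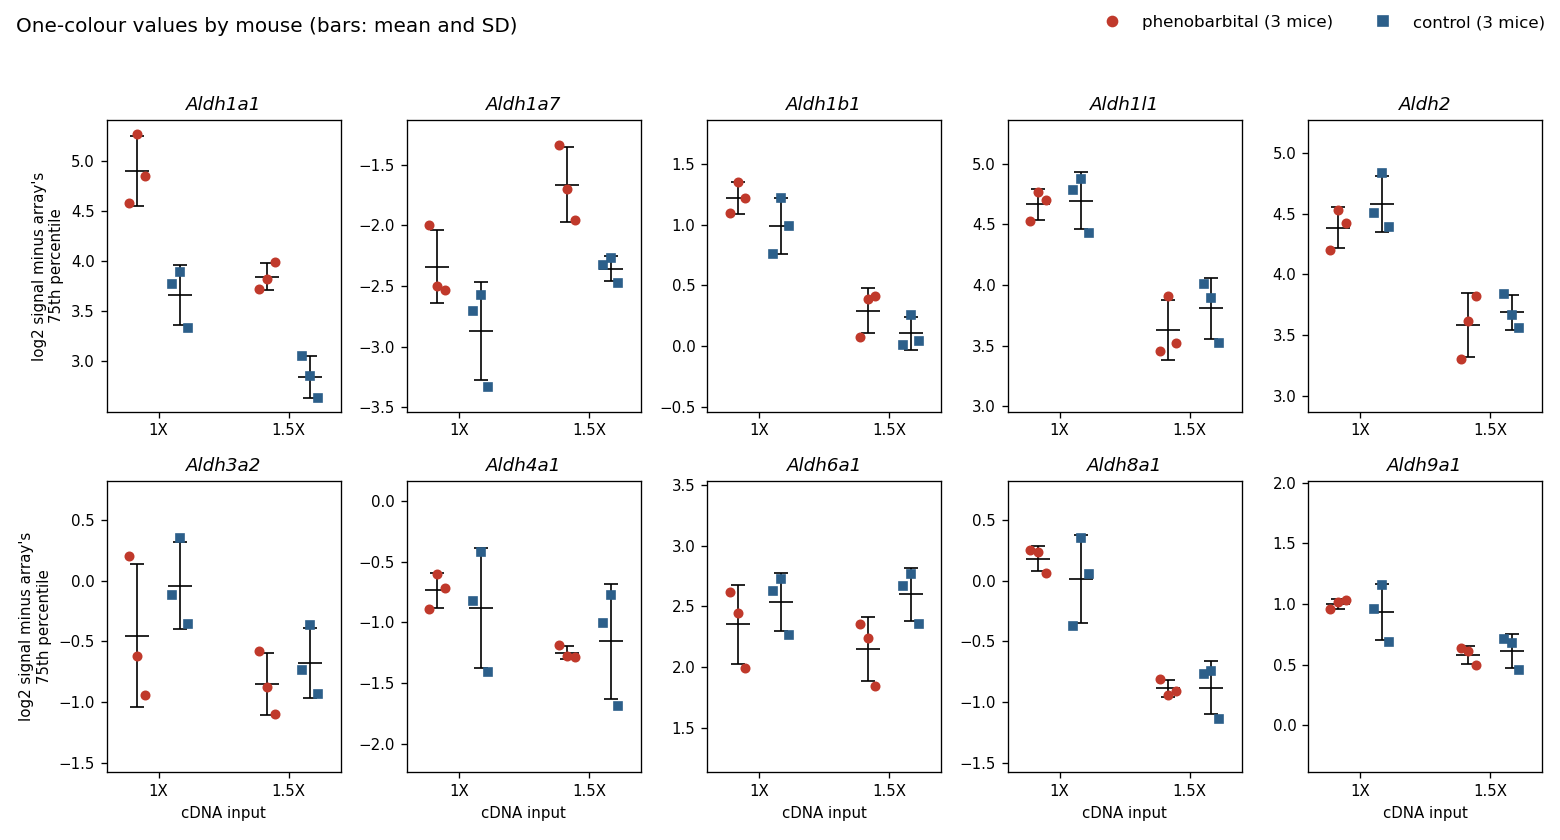
One-colour values of the 10 genes by mouse, as log2 signal minus the array's 75th percentile (vertical axis; its position differs between panels), at 1X and 1.5X cDNA input, with phenobarbital mice as red circles, control mice as blue squares, and bars for the mean and SD of 3 mice. In the Aldh1a1 and Aldh1a7 panels the groups do not overlap at either input.

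Aldh1a1 encodes a cytosolic enzyme that oxidizes retinaldehyde to retinoic acid. In the one-colour 1X set it had 4.58, 5.27 and 4.85 in phenobarbital mice, against 3.78, 3.89 and 3.33 in control mice. At 1.5X input it had 3.73, 3.82 and 3.99 in phenobarbital mice, against 3.05, 2.85 and 2.63 in control mice. The groups lay apart in both sets, and control mouse 3 was the lowest of all mice in both. Averaged over both inputs, Aldh1a1 was 4.37 ± 0.20 in phenobarbital mice and 3.25 ± 0.24 in control mice (SD, n = 3 each). The log2 change was 1.12 (SE 0.18, 95% interval 0.69 to 1.55), a 2.17-fold difference. Its adjusted p of 0.0511 missed the threshold, which 90 of 12883 genes passed (0.699%), and 175 genes had a higher fitted change. The adjusted p ranged from 0.0110 to 0.245 over the alternatives, and 2 of 14 put it under the threshold. The changes in the single sets were 1.24 at 1X (interval 0.64 to 1.83, adjusted p = 0.176) and 1.00 at 1.5X (interval 0.59 to 1.42, adjusted p = 0.0806), where 0.161% and 0.237% of genes passed.

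In the two-colour 1X set Aldh1a1 rose to 12.14, 12.21 and 12.26 in phenobarbital mice, against 11.28, 11.18 and 10.996 in control mice. The log2 change was 1.05 (SE 0.091, interval 0.84 to 1.26, adjusted p = 0.000870), a 2.07-fold difference, in a set where 6.11% of 8259 genes passed and 3.32% passed as higher. It passed there whichever mouse was left out, with changes of 0.97 to 1.12 and adjusted p of 0.00174 to 0.00762. The ratio of phenobarbital over control was positive on 6 of 6 arrays, between 0.86 and 1.25 with the phenobarbital sample in Cy3 and between 0.72 and 1.29 with it in Cy5. In the same set 2 of 9 hepatocyte markers tested passed as lower, Alb (log2 change -0.39) and Ttr (-0.62). The 9 had changes of -0.62 to 0.28, with a median of -0.15. Of 7 pericentral hepatocyte markers tested 1 passed as higher, Cyp1a2 (0.59), while the median of the 7 was -0.20. Among all genes of that set 6.11% passed in either direction, and the part of these markers in the Aldh1a1 value was not tested. Alb kept its call in 2 of the 6 fits that left out 1 mouse, with an adjusted p of up to 0.0939 in the others. Ttr and Cyp1a2 each lost theirs with the Cy3 values alone and with the mouse numbers of the source names, with an adjusted p of up to 0.134 for Ttr and 0.0996 for Cyp1a2, and Alb lost its own in both, with loess only and with processed signals (up to 0.269).

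In the two-colour 1.5X set Aldh1a1 had 10.22, 10.55 and 10.32 in phenobarbital mice, against 9.99, 9.97 and 9.64 in control mice. The groups again did not overlap, which held for 3.67% of genes in this set in either direction. The log2 change was 0.50 (interval 0.038 to 0.96, adjusted p = 0.999), and with the Cy3 values alone it was 0.98 (adjusted p = 0.0652). None of the 1663 genes tested there passed with limma, and 29 had an unadjusted p under 0.05. All 8 arrays gave a positive Aldh1a1 ratio, between 0.23 and 0.85 with the phenobarbital sample in Cy3 and between 0.044 and 0.61 with it in Cy5. The median change of the CAR targets tested was 0.72 in this set, against 1.74 in the two-colour 1X set.

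Aldh1a7, the rodent paralog beside Aldh1a1, encodes another cytosolic aldehyde dehydrogenase. It had -2.00, -2.497 and -2.53 in phenobarbital mice at 1X, against -2.71, -2.58 and -3.33 in control mice. At 1.5X it had -1.34, -1.70 and -1.96 in phenobarbital mice, against -2.33, -2.27 and -2.48 in control mice. All phenobarbital mice were above all control mice at both inputs, with phenobarbital mouse 1 the highest, and at 1X the gap between the groups was narrow. Averaged over both inputs the log2 change was 0.61 (SE 0.21, interval 0.12 to 1.10, adjusted p = 0.273). The single sets gave 0.53 at 1X (adjusted p = 0.658) and 0.69 at 1.5X (adjusted p = 0.212). Aldh1a7 and Aldh1a1 were the 2 of 10 genes with no overlap over both inputs, against 18.9% of all genes tested in either direction.

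Aldh1a7 was not tested in the two-colour sets because it was dim in Cy5: its probe was well above background in that channel on 1 of 3 phenobarbital and 2 of 3 control samples at 1X, and on none of 4 and none of 4 at 1.5X. Its two-colour 1X values were 6.91, 7.01 and 6.80 in phenobarbital mice, against 6.67, 6.63 and 6.69 in control mice, a difference of 0.24. At 1.5X the values were 6.69, 6.63 and 6.48 in phenobarbital mice, against 6.64, 6.62 and 6.31 in control mice, and the groups overlapped. The probe sequences of this paralogous pair were not analysed here, so how far one transcript also binds the other gene's probe was not tested.

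Aldh1b1 encodes a mitochondrial enzyme that oxidizes acetaldehyde and retinaldehyde. It had 1.09, 1.35 and 1.22 in phenobarbital mice at 1X input, against 0.76, 1.22 and 0.99 in control mice. The 1.5X values were 0.078, 0.39 and 0.41 in phenobarbital mice, against 0.012, 0.26 and 0.042 in control mice. The groups overlapped in both sets, with the phenobarbital mean higher in each, a direction that turned at 1X without scaling between arrays (-0.064). The log2 change over both inputs was 0.21 (interval -0.17 to 0.59, adjusted p = 0.632), and the two-colour 1X set gave 0.12 (interval -0.060 to 0.31, adjusted p = 0.384).

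Aldh2 encodes the mitochondrial enzyme that clears most of the acetaldehyde made from ethanol. At 1X input it had 4.20, 4.53 and 4.42 in phenobarbital mice, against 4.50, 4.84 and 4.39 in control mice. The 1.5X values were 3.30, 3.62 and 3.82 in phenobarbital mice, against 3.84, 3.66 and 3.56 in control mice. The groups overlapped at both inputs, and phenobarbital mouse 1 was the lowest mouse at each. The two-colour 1X values were 11.82, 11.80 and 12.13 in phenobarbital mice, against 12.13, 12.02 and 12.02 in control mice. The log2 changes were -0.15 over both one-colour inputs (interval -0.53 to 0.23), -0.14 in the two-colour 1X set (interval -0.38 to 0.095) and -0.091 in the two-colour 1.5X set (interval -0.59 to 0.41). None of them passed (adjusted p of 0.742, 0.441 and 0.999).

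**Figure D2:**
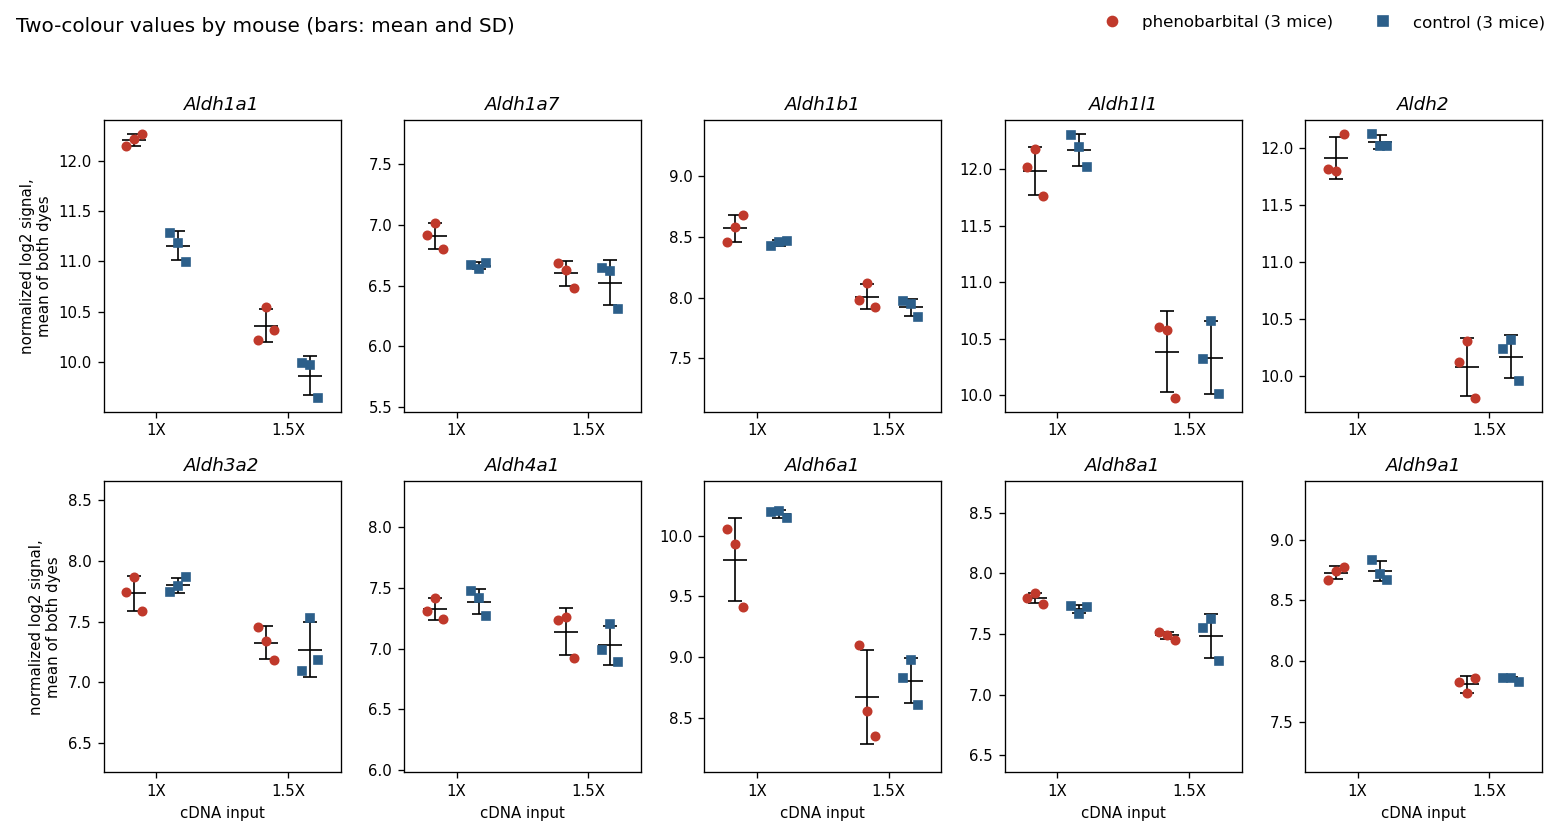
Two-colour values of the 10 genes by mouse, as normalized log2 signal averaged over both dyes (vertical axis; its position differs between panels), at 1X and 1.5X cDNA input, with phenobarbital mice as red circles, control mice as blue squares, and bars for the mean and SD of 3 mice. Aldh1a1 has the widest gap between the groups at 1X (means 12.21 and 11.15), and at 1.5X it is the gene whose groups do not overlap.

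Aldh1l1 encodes the cytosolic formyltetrahydrofolate dehydrogenase, which returns formyl-carrying folate to tetrahydrofolate. It had 4.52, 4.76 and 4.702 in phenobarbital mice at 1X, against 4.78, 4.87 and 4.43 in control mice. The 1.5X values were 3.45, 3.91 and 3.52 in phenobarbital mice, against 4.01, 3.89 and 3.52 in control mice. No group lay apart from the other. The log2 changes were -0.10 over both one-colour inputs (interval -0.52 to 0.31, adjusted p = 0.841), -0.19 in the two-colour 1X set (interval -0.47 to 0.094, adjusted p = 0.388) and 0.054 in the two-colour 1.5X set (interval -0.58 to 0.69, adjusted p = 0.999).

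Aldh3a2 encodes the microsomal fatty aldehyde dehydrogenase, which handles long-chain aldehydes of fatty alcohols and sphingolipids. It varied most among the phenobarbital mice at 1X input, with 0.21, -0.62 and -0.94 there, against -0.12, 0.35 and -0.35 in control mice. With 1.5X input the gene had -0.58, -0.88 and -1.10 in phenobarbital mice, against -0.74, -0.37 and -0.94 in control mice. The same phenobarbital mouse was highest and the same one lowest at both inputs. The log2 change was -0.29 over both inputs (interval -0.90 to 0.31, adjusted p = 0.679) and -0.068 in the two-colour 1X set (interval -0.28 to 0.14, adjusted p = 0.680). Over both inputs it was -0.52 without phenobarbital mouse 1 and -0.11 without phenobarbital mouse 3, the lowest and the highest value with 1 mouse left out.

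Aldh4a1 encodes the mitochondrial dehydrogenase of glutamate semialdehyde, the last step of proline breakdown. It had -0.89, -0.60 and -0.72 in phenobarbital mice at 1X, against -0.82, -0.42 and -1.41 in control mice. With 1.5X input the gene had -1.19, -1.27 and -1.28 in phenobarbital mice, against -1.003, -0.77 and -1.69 in control mice. Control mice 2 and 3 were the highest and the lowest of the 6 mice at both inputs, so the phenobarbital mice lay within the control range. The log2 change was 0.027 over both inputs (interval -0.54 to 0.59, adjusted p = 0.975) and -0.064 in the two-colour 1X set (interval -0.26 to 0.13, adjusted p = 0.683).

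Aldh6a1 encodes the mitochondrial methylmalonate semialdehyde dehydrogenase of valine and pyrimidine breakdown. It had the lowest fitted change of the 10 genes over both one-colour inputs, and of the 9 genes tested in the two-colour 1X set. At 1X input it had 2.62, 2.44 and 1.99 in phenobarbital mice, against 2.62, 2.72 and 2.26 in control mice. At 1.5X it had 2.35, 2.24 and 1.85 in phenobarbital mice, against 2.67, 2.77 and 2.35 in control mice. The groups overlapped at 1X, and at 1.5X the highest phenobarbital mouse (2.351) lay just under the lowest control mouse (2.353). The two-colour 1X values were 10.06, 9.93 and 9.41 in phenobarbital mice, against 10.20, 10.20 and 10.14 in control mice, without overlap. That held for 32.9% of all genes tested in that set, in either direction. Phenobarbital mouse 3 was the lowest of all 6 mice in each of the 4 sets. The log2 changes were -0.32 over both one-colour inputs (interval -0.79 to 0.16, adjusted p = 0.560), -0.45 at 1.5X alone (interval -0.93 to 0.028, adjusted p = 0.357) and -0.38 in the two-colour 1X set (interval -0.73 to -0.026, adjusted p = 0.176). Leaving out phenobarbital mouse 3 gave the values nearest 0, -0.15 for both one-colour inputs together and -0.18 for the two-colour 1X arrays.

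The other probe of Aldh6a1 was dim. It was well above background on none of 3 phenobarbital and 1 of 3 control arrays at 1X, and on 1 of 3 and 1 of 3 at 1.5X. It was not tested in any set and gives no second reading of the gene.

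Aldh8a1 encodes an aminomuconic semialdehyde dehydrogenase of the kynurenine pathway, a role known from the human enzyme. It had 0.25, 0.23 and 0.059 in phenobarbital mice at 1X, against -0.37, 0.35 and 0.050 in control mice. At 1.5X it had -0.81, -0.95 and -0.91 in phenobarbital mice, against -0.77, -0.75 and -1.14 in control mice. The two-colour 1X values were 7.80, 7.84 and 7.75 in phenobarbital mice, against 7.73, 7.66 and 7.72 in control mice, without overlap. Groups lay apart for 32.9% of all genes tested in that set, in either direction. The difference in that set was small, 0.090 on the log2 scale (interval -0.068 to 0.25, adjusted p = 0.464), and the change over both one-colour inputs was 0.084 (interval -0.28 to 0.45, adjusted p = 0.854).

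Aldh9a1 encodes the trimethylaminobutyraldehyde dehydrogenase of carnitine synthesis. It had 0.96, 1.02 and 1.03 in phenobarbital mice at 1X, against 0.96, 1.15 and 0.69 in control mice. With 1.5X input the gene had 0.64, 0.61 and 0.50 in phenobarbital mice, against 0.71, 0.67 and 0.45 in control mice. The groups overlapped in each set. The log2 change was 0.020 over both inputs (interval -0.33 to 0.37, adjusted p = 0.969) and -0.0097 in the two-colour 1X set (interval -0.19 to 0.17, adjusted p = 0.954).

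**Figure D3:**
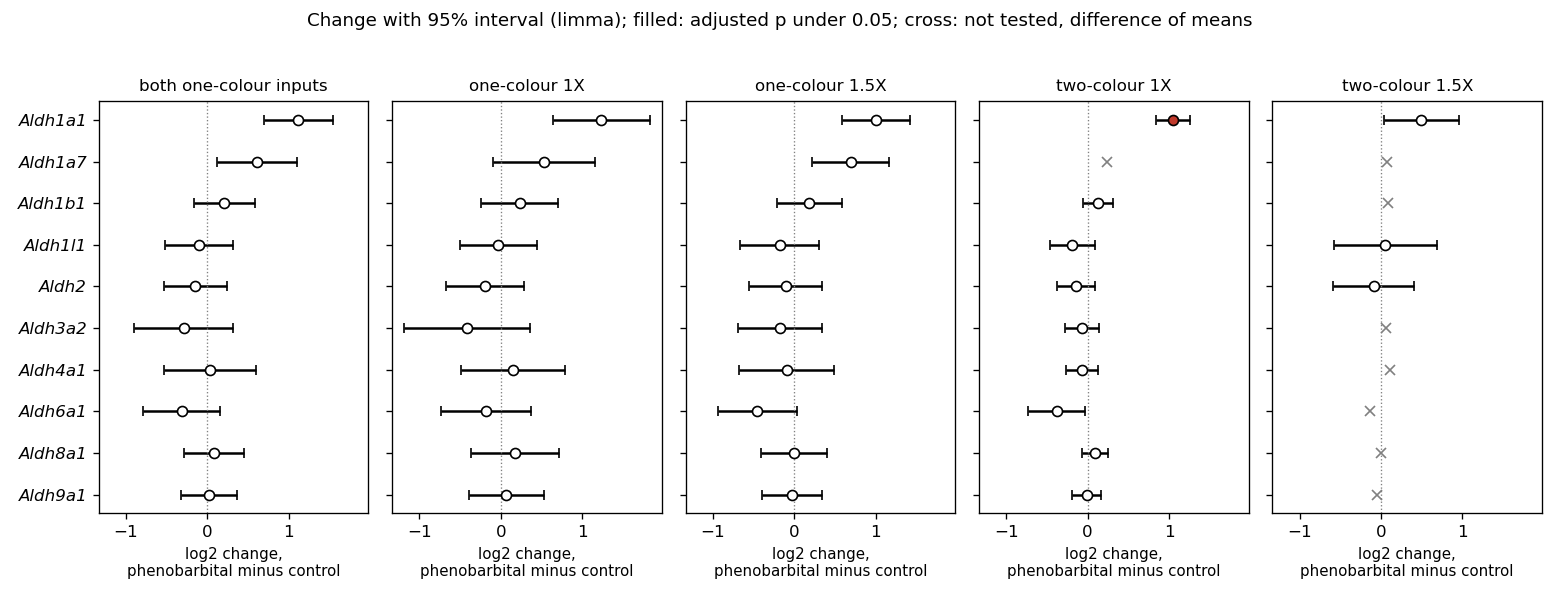
Log2 change of each gene, phenobarbital minus control (horizontal axis), in 5 comparisons, with points for limma's estimate, bars for its 95% interval, a filled point for an adjusted p under 0.05 and crosses for genes not tested, at the difference of the group means. Aldh1a1 lies right of 0 in all 5 panels and is filled in the two-colour 1X panel.

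Counted together, none of the 10 genes passed over both one-colour inputs (limma, background 0.699%) or in either one-colour set (0.161% at 1X and 0.237% at 1.5X), 1 of 9 tested (Aldh1a1) passed in the two-colour 1X set (6.11%), and none of 3 tested passed in the two-colour 1.5X set (0%). At an unadjusted p under 0.05 limma gave 2 of 10 over both inputs, against 13.4% of all genes, 1 of 10 at 1X, against 8.58%, and 2 of 10 at 1.5X, against 15%. For the two-colour arrays it gave 2 of 9 at 1X, against 24.7%, and 1 of 3 at 1.5X, against 1.74%. Groups did not overlap for 2 of 10 genes at 1X (14.1% of all genes), for 3 of 10 at 1.5X (20.8%), for 3 of 9 in the two-colour 1X set (32.9%) and for 1 of 3 in the two-colour 1.5X set (3.67%). Read against these shares, the counts over both inputs, in the one-colour sets and in the two-colour 1X set do not stand far from the background. The median change of the 10 genes was 0.023 over both inputs and that of all genes -0.018. The two-colour 1X medians were -0.064 over the 9 genes tested and -0.0071 over all genes.

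**Figure D4:**
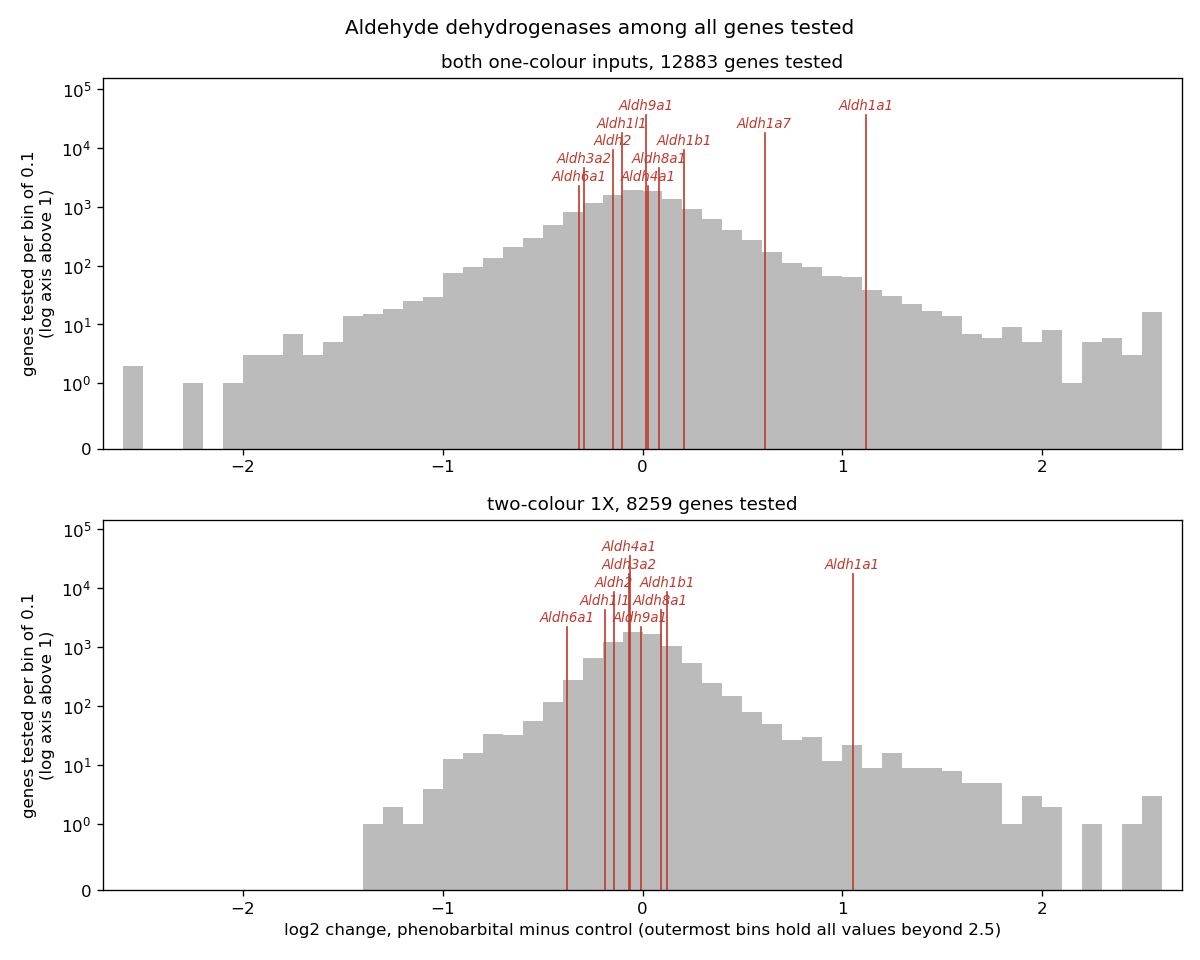
Number of genes tested (vertical axis, logarithmic above 1) by log2 change, phenobarbital minus control (horizontal axis, bins of 0.1, with all values beyond 2.5 in the outermost bins), over both one-colour inputs (12883 genes) and in the two-colour 1X set (8259 genes), with red lines at the aldehyde dehydrogenases. Aldh1a1 stands at 1.12 and 1.05 in the upper tail, while 8 of the 10 genes lie between -0.32 and 0.21 over both inputs.

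Whether the phenobarbital effect differed between the inputs was tested on the difference between the 1.5X and the 1X value of each mouse. None of the 10 genes passed, nor any of the 12883 tested (0%, limma). For Aldh1a1 the effect at 1.5X minus that at 1X was -0.23 (interval -0.78 to 0.31, adjusted p = 0.951), and for Aldh6a1 it was -0.27 (interval -0.66 to 0.13, adjusted p = 0.906). Between the formats, none of 9 genes passed in the difference of the two-colour 1X from the one-colour 1X effect, where 0.0242% of 8254 genes did. Aldh1a1 had -0.18 (interval -0.66 to 0.29, adjusted p = 0.998) and Aldh3a2, with the largest value of the 9, had 0.34 (interval -0.36 to 1.04, adjusted p = 0.998).

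The value relative to the percentile of each array was lower at 1.5X than at 1X for most of the genes, and input cannot be told apart from slide here. The difference was between -1.45 and -0.70 for Aldh1a1 in the 6 mice, between -1.18 and -0.77 for Aldh1l1 and between -1.18 and -0.60 for Aldh2. The median over all genes tested was -0.76. The scale was set separately in each set, and the signal at the 75th percentile ran from 429 to 759 at 1X and from 1075 to 1994 at 1.5X. The part of the scale in these differences was not tested. Aldh1a7 went the other way in every mouse, between 0.30 and 0.86, and Aldh6a1 lay between -0.27 and 0.090.

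**Figure D5:**
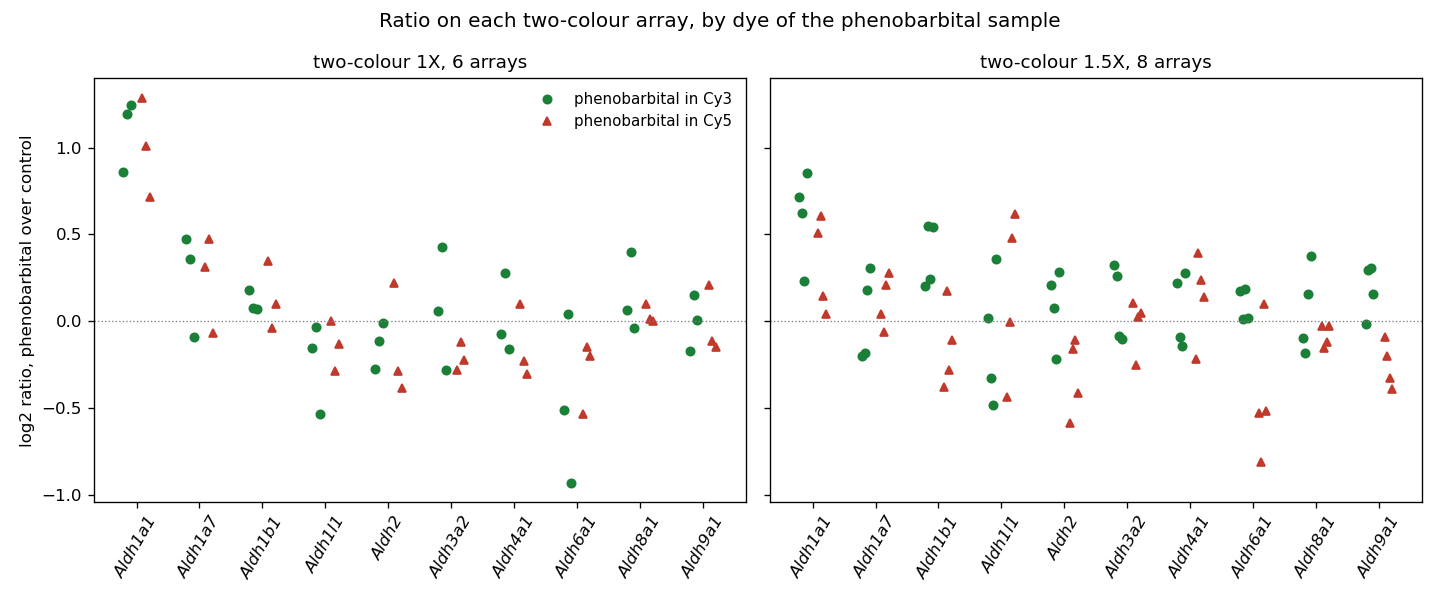
Log2 ratio of phenobarbital over control on each two-colour array (vertical axis) for the 10 genes at 1X (6 arrays) and 1.5X (8 arrays), with green circles where the phenobarbital sample was in Cy3 and red triangles where it was in Cy5. All Aldh1a1 points lie above 0, while Aldh9a1 and Aldh1b1 at 1.5X lie mostly above 0 in the one dye orientation and below it in the other.

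Several two-colour 1.5X ratios differed between the dye orientations, which mostly paired different mice, so that dye and pair cannot be told apart over all 8 arrays. Aldh1b1 was between 0.20 and 0.55 on 4 arrays with the phenobarbital sample in Cy3 and between -0.38 and 0.18 on 4 arrays with it in Cy5. Aldh9a1 was between -0.016 and 0.30 with it in Cy3 and between -0.39 and -0.092 with it in Cy5. Aldh6a1 was between 0.013 and 0.18 with it in Cy3 and between -0.81 and 0.098 with it in Cy5, so the orientations overlapped. Phenobarbital mouse 3 and control mouse 3 were hybridized together in both orientations, with 1 array each. There the ratio with the phenobarbital sample in Cy3 was 0.54 for Aldh1b1, 0.16 for Aldh9a1 and 0.019 for Aldh6a1, and with it in Cy5 it was -0.38, -0.092 and -0.53 for the same genes. In Cy5, Aldh1b1 was well above background on 1 of 4 phenobarbital and none of 4 control samples of that set, and Aldh9a1 likewise on 1 of 4 and none of 4, which kept both out of the test. Aldh1a1, Aldh1l1 and Aldh2 were above background in both channels of all 8 arrays.

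Of 11 other aldehyde dehydrogenase genes with a probe, 4 were tested over both one-colour inputs (Aldh1a3, Aldh5a1, Aldh7a1 and Aldh16a1) and none passed, with changes of -0.40 to 0.82. In the two-colour 1X set 4 were tested and 1 passed as higher, where 6.11% of all genes passed in either direction and 3.32% as higher. This was Aldh1a3, another retinaldehyde dehydrogenase, with 7.17, 7.25 and 7.29 in phenobarbital mice, against 6.81, 7.01 and 6.86 in control mice. Its log2 change was 0.34 (SE 0.081, adjusted p = 0.0467), and the call was lost whichever mouse was left out (adjusted p of 0.0661 to 0.151) and in 6 of the other 9 alternatives (up to 0.316). Over both one-colour inputs Aldh1a3 had 0.82 (adjusted p = 0.423). Aldh3b1 and Aldh18a1 were tested in the one-colour 1X set alone and did not pass. Aldh1a2, Aldh1l2, Aldh3a1, Aldh3b2 and Aldh3b3 were tested in no set. At 1X Aldh1a2 was well above background in 2 of 3 phenobarbital and 2 of 3 control mice and Aldh3b3 in 2 and 1, the other three in no mouse, and at 1.5X none of the probes was in any mouse.

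Genes that feed or follow these enzymes were counted in lists. Of 16 genes of retinoid supply, 10 were tested over both one-colour inputs, with a median change of -0.16, and 1 passed as lower, where 0.699% of all genes passed in either direction. Rdh9, a retinol dehydrogenase, had -0.99 (adjusted p = 0.0493) and lost the call whichever mouse was left out (adjusted p of 0.0739 to 0.174). Of 8 tested in the two-colour 1X set 2 passed as lower, where 6.11% of all genes passed in either direction. Rdh16 fell by 0.57 (adjusted p = 0.00476) and Rdh7 fell by 0.37 (adjusted p = 0.0474), both retinol dehydrogenases, and Rdh7 lost the call whichever mouse was left out (adjusted p of 0.0537 to 0.146). With the mouse numbers of the source names Rdh16 lost its call as well (adjusted p = 0.0828). In that set Rdh16 was above background in 2 of 3 phenobarbital and 3 of 3 control mice, so it entered the test through the control group alone.

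Of 9 genes of ethanol and aldehyde oxidation, 8 were tested over both one-colour inputs with a median of -0.070 and none passed. Of 7 tested in the two-colour 1X set 2 passed as lower, against the 6.11% of all genes: Aox3, a hepatic aldehyde oxidase, fell by 0.54 (adjusted p = 0.0192) and Adh7, a retinol-active alcohol dehydrogenase, fell by 0.43 (adjusted p = 0.0346). Aox3 lost the call without phenobarbital mouse 2 (adjusted p = 0.0699), control mouse 2 (0.0785) or control mouse 3 (0.0786), with the Cy3 values alone (0.233) and with the mouse numbers of the source names (0.128). Adh7 kept it only without phenobarbital mouse 3, with an adjusted p of up to 0.124 otherwise, and lost it with 5 other settings: normexp offset 0 (0.0528), loess only (0.115), processed signals (0.121), the source names (0.143) and the Cy3 values alone (0.251). Of 8 genes around fatty and sphingolipid aldehydes, 6 were tested in the two-colour 1X set and 2 passed, again against 6.11%. Sgpl1, the sphingosine phosphate lyase that releases a fatty aldehyde, rose by 0.61 (adjusted p = 0.00423), and Cyp4f14, a fatty acid hydroxylase, fell by 0.48 (adjusted p = 0.00975). Cyp4f14 lost the call with the Cy3 values alone, the source names or loess only, with an adjusted p of up to 0.0666.

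No gene passed in any of the 5 comparisons among the lists of the folate, proline, valine, kynurenine and carnitine pathways. Of 16 folate one-carbon genes 13 were tested over both one-colour inputs, with a median of -0.13, and those with the smallest p were Dmgdh (-0.93, adjusted p = 0.196) and Dld (-0.35, adjusted p = 0.407). Of 9 genes of tryptophan and kynurenine breakdown all 9 were tested, with a median of -0.36, led by Ido2 (-0.63, adjusted p = 0.202) and Haao (-0.45, adjusted p = 0.301). Of 13 genes of valine and propionate breakdown 10 were tested, with a median of -0.18, led by Dld and Echs1 (-0.56, adjusted p = 0.423). Of 9 genes of proline and hydroxyproline breakdown 7 were tested, with a median of -0.064, led by Oat (-0.45, adjusted p = 0.295) and Got1 (-0.49, adjusted p = 0.470). All 4 genes of carnitine synthesis were tested, with a median of -0.31, led by Bbox1 (-0.58, adjusted p = 0.434) and Tmlhe (-0.38, adjusted p = 0.515). The median of all genes tested was -0.018.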

How the data were processed

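Per the file headers, spots were quantified by the authors with Agilent Feature Extraction 11.0.1.1. For each spot the deposited files give an intensity: the processed signal (background-subtracted, not scaled between arrays) and raw medians of the spot and its local background. The deposited spot flags (unit: other) mark spots well above background. Two-colour files and the series matrix also hold deposited log10 ratios, and the authors' one-colour matrix columns equal the processed signal.

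For one-colour arrays, the log2 of the deposited processed signal was taken and the array's 75th percentile subtracted, computed from probes above background on every array in the set. Two-colour values came from the deposited median intensities by normexp (offset 50), loess (span 0.3) and Aquantile, and each mouse's Cy3 and Cy5 values were averaged. Replicate spots were averaged, and the probe with the highest mean one-colour signal stood for a gene. Genes were tested when well above background on all arrays of a group, for both inputs in each set separately. Two-colour 1X arrays 4 and 8 were left out because their labels give opposite dyes. On arrays 3, 5, 6 and 7 mouse numbers differ between labels, and those of the description were used, with those of the source names as an alternative. Either label puts each of these channels in the same group. By the source names, however, some two-colour 1X values given for a mouse average different mice. The values by mouse, the fits without a mouse and the test between formats rest on the description there. Gene names came from RefSeq accessions (GRCm38.p6), and the promoter sequences are RefSeq's.

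Tests used limma 3.58.1 (lmFit, eBayes) in R 4.3.3 on 3 against 3 mice, with 95% intervals, and were tested on simulated data. With 200 genes changed 2-fold in the simulated data, 0% of them were called at one-colour 1X and 0% at one-colour 1.5X. It was 39.5% over both one-colour inputs, 92.5% in the two-colour 1X set and 42% in the two-colour 1.5X set. A gene not called may thus still differ by that much. The number of arrays limits the precision. The labels give 3 mice a group, and p-values measure the spread between them as these arrays show it. In the two-colour sets a phenobarbital and a control sample share each array, and the fit did not model this pairing. All 10 genes and every probe of them were named, with the other aldehyde dehydrogenases, the CAR targets, and in each pathway list the genes that passed or else the 2 with the smallest p over both one-colour inputs. The genes and lists were chosen with earlier results of these data known. Alternatives covered filter, scaling, background correction, dye, array labels, blocks and leaving out each mouse. Figures used matplotlib 3.10.9 in Python 3.11.15. A gene of the retinoid list is not reported here.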

Additional observations from a re-analysis of the deposited data

Results flagged for a closer look

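The log2 ratio of phenobarbital over control for Aldh8a1 on array 3 of the two-colour 1X set was 0.3967, far from the other 5 arrays, which lay between -0.0394 and 0.101. The gap to the nearest array exceeded the limit for a single outlying value. Of 20 groups of array ratios tested in this way 1 stood out, and chance gives about 1 in 20.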

How the results depend on the processing

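Aldh1a1 kept its direction under every alternative run, and its call in the two-colour 1X set was kept in all of them. Over both one-colour inputs the count of called genes was 1 (Aldh1a1) with normexp and quantile normalization, and also 1 when a probe had to be above background on all 6 arrays of a group, a filter chosen after seeing the data (adjusted p = 0.0496). At 1.5X it was 1 with normexp and quantile. The cause was not tested. Without scaling between arrays the median of all genes was -0.23 over both inputs, -0.28 at 1X and -0.16 at 1.5X, against -0.018, 0.011 and -0.024 with it, and signs turned for Aldh1b1 (-0.0066 over both inputs, -0.064 at 1X), Aldh4a1 (-0.19, -0.15), Aldh8a1 (-0.13, -0.12) and Aldh9a1 (-0.20, -0.22). Signs also turned for Aldh8a1 at 1.5X with normexp and quantile (0.082) and with the percentile over all probes (0.024), in the two-colour 1X set with processed signals for Aldh3a2 (0.011) and Aldh9a1 (0.12) and with all 8 arrays for Aldh9a1 (0.0070), and in the two-colour 1.5X set for Aldh1l1 with processed signals (-0.011) or Cy3 alone (-0.065) and Aldh2 with Cy3 alone (0.044). None of these values was called. Leaving out 1 mouse turned the sign within these ranges: over both inputs Aldh4a1 -0.24 to 0.24 and Aldh9a1 -0.081 to 0.091. At 1X they were Aldh1l1 -0.16 to 0.058, Aldh4a1 -0.12 to 0.38, Aldh8a1 -0.021 to 0.34 and Aldh9a1 -0.052 to 0.18. At 1.5X they were Aldh2 -0.23 to 0.034, Aldh4a1 -0.36 to 0.096, Aldh8a1 -0.13 to 0.065 and Aldh9a1 -0.11 to 0.017. In the two-colour 1X set they were Aldh3a2 -0.14 to 0.0050 and Aldh9a1 -0.045 to 0.036, and in the 1.5X set Aldh1l1 -0.11 to 0.26 and Aldh2 -0.21 to 0.046. Between inputs they were Aldh1b1 -0.10 to 0.028, Aldh2 -0.055 to 0.20 and Aldh8a1 -0.32 to 0.075, and between formats Aldh2 -0.097 to 0.18, Aldh8a1 -0.27 to 0.12 and Aldh9a1 -0.20 to 0.0074.

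Of the other genes called in the two-colour 1X set, Sgpl1 kept its call in 15 of 15 alternatives, Rdh16 in 14, Ttr and Cyp1a2 in 13, Cyp4f14 in 12, Aox3 in 10, Alb in 7, Adh7 in 5 and Aldh1a3 and Rdh7 in 3, and Rdh9 over both inputs kept it in 4 of 14. Counts over all genes moved more. Over both inputs 90 became 28 without the filter, 145 with normexp and quantile, 59 without scaling, and 16 to 101 with a mouse left out. At 1X 30 became 7 without the filter, 18 without scaling, 11 with the slide row as a block and 5 to 18 with a mouse left out. At 1.5X 31 became 7, 160 with normexp and quantile, 15 with the slide row and 11 to 142. In the two-colour 1X set 505 became 136 with Cy3 alone, 100 with the mouse numbers of the source names and 213 to 622. In the two-colour 1.5X set 0 became 15 with Cy3 alone, and between formats 2 became 0 to 2. Same-numbered mice did not all deviate together over both inputs (correlations of 0.051, -0.12 and 0.28, with -0.26 to 0.24 for other pairs). At 1.5X the correlations were 0.087, 0.025 and 0.18, with -0.13 to 0.056 for other pairs. In the two-colour 1X set they were 0.28, -0.032 and 0.38, with -0.40 to 0.28 for other pairs. By the description same-numbered mice shared arrays in that set, as did some other pairs, so array and number cannot be told apart there. So few pairs cannot settle whether the numbers pair the mice. With the replicate number as a block the counts were 36 over both inputs, 3 at 1X, 4 at 1.5X, 717 in the two-colour 1X set and 0 in the two-colour 1.5X set, and the adjusted p of Aldh1a1 was 0.113, 0.280, 0.180, 0.00118 and 0.999. The low Cy5 signal at 1.5X kept 7 of the 10 genes out of the test there.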

Other observations

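On the two-colour 1X arrays that were left out, 4 and 8, the dye order differs between labels. Taken by the channel labels, the log2 ratio of phenobarbital over control was 0.71 and 1.12 for Aldh1a1 and 1.81 and 1.55 for Cyp2b10, and taken by the description it was -0.71 and -1.12 for Aldh1a1 and -1.81 and -1.55 for Cyp2b10. On the 6 arrays used, the ratio was between 0.72 and 1.29 for Aldh1a1 and between 1.26 and 2.11 for Cyp2b10. For both genes that is the sign given by the channel labels on arrays 4 and 8, and the opposite of that given by the description. By the channel labels Aldh6a1 had -0.38 and -0.10 and Aldh8a1 had -0.53 and 0.16.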
